A study of Mus musculus with 6 samples.

Results

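Ribosomal protein genes encode the proteins of the cytosolic ribosome, and their signal was compared between lymphatic endothelial cells (LECs) of healthy skin and of tumours. The members are all genes whose only symbol in the array's annotation begins with Rpl or Rps and a digit, together with Rplp0, Rplp1, Rplp2 and Rpsa, without the kinases of the Rps6k family. These were 51 of the 18193 genes with a symbol of their own, 26 for the large and 25 for the small subunit, measured by 107 probe sets of 45037 tested. The rule also takes in Rps15a-ps6, a pseudogene, and Rps19bp1, which encodes a protein that binds Rps19, and it takes in relatives of ribosomal protein genes such as Rpl3l, Rpl7l1, Rpl22l1, Rpl39l, Rps27l and Rps4l. Another 110 probe sets carry a member symbol beside other symbols, mostly of pseudogenes, and are described apart. They hold the 27 ribosomal protein genes, among them Rpl3, Rpl5, Rpl10 and Rplp1, that have no probe set of their own.

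The 3 healthy samples were LECs from mammary skin of balb-c/nude mice, and the 3 tumour samples were LECs from tumours formed 8 weeks after subcutaneous injection of MDA-MB-435, a human cancer line. Sections were stained for LYVE-1, a receptor of lymphatic vessels, and stained cells were cut out with a laser, so neighbouring cells can be included. RNA from each sample went through 1 round of Ribo-SPIA amplification and onto 1 mouse Affymetrix array. The labels give neither age nor the number of animals and name no strain for the tumour hosts, so p-values measure only the spread between these samples.

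A ribosome consists of a small subunit, which reads the messenger RNA, and a large subunit, which joins the amino acids. Each subunit needs its proteins in matched amounts, and surplus ribosomal proteins are degraded or, as with Rpl5 and Rpl11, bind the p53 regulator Mdm2. The messenger RNAs of ribosomal proteins begin with a run of pyrimidines, the 5′ terminal oligopyrimidine or TOP element, through which the kinase mTOR and the RNA-binding protein Larp1 control their translation. Signals below are probe set values on the log2 scale, differences are tumour minus healthy on that scale, and a gene stands for its probe set with the highest mean over the 6 arrays. Background is set, array by array, at the 95th percentile of the signals of 27 bacterial controls.

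Ribosomal protein genes as a family did not separate the tumour samples from the healthy ones. No member probe set passed limma's test at an adjusted p under 0.05, a rule met by 0.00444% of all probe sets and 0.0055% of all genes. At an unadjusted limma p under 0.05, 7 of 107 member probe sets were lower in tumours (background 3.53%) and 3 were higher (background 2.83%). The tumour values lay wholly below the healthy ones for 10 member probe sets (background 4.91%) and wholly above for 3 (background 6.22%). Read by gene, they lay below for 5 of 51 (background 5.36%) and above for 1 (background 6.58%). The median difference was -0.06 over the 26 large-subunit genes and -0.27 over the 25 small-subunit genes, against 0.08 over all genes. Of the large-subunit genes 15 had a negative difference, of the small-subunit genes 19, and of all genes 42.7%. The difference between the subunits was not tested. The large-subunit median became 0.07 after quantile normalization, 0.08 without healthy replicate 2 and 0.11 without tumour replicate 3. That of the small subunit stayed negative in each of those fits, at -0.05, -0.29 and -0.05, and was -0.64 without healthy replicate 1. Other fits brought the subunits closer together at lower values. With array weights the medians were -0.29 (large, 21 of 26 negative) and -0.30 (small, 17 of 25 negative), and without tumour replicate 2 they were -0.42 and -0.46.

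**Figure D1:**
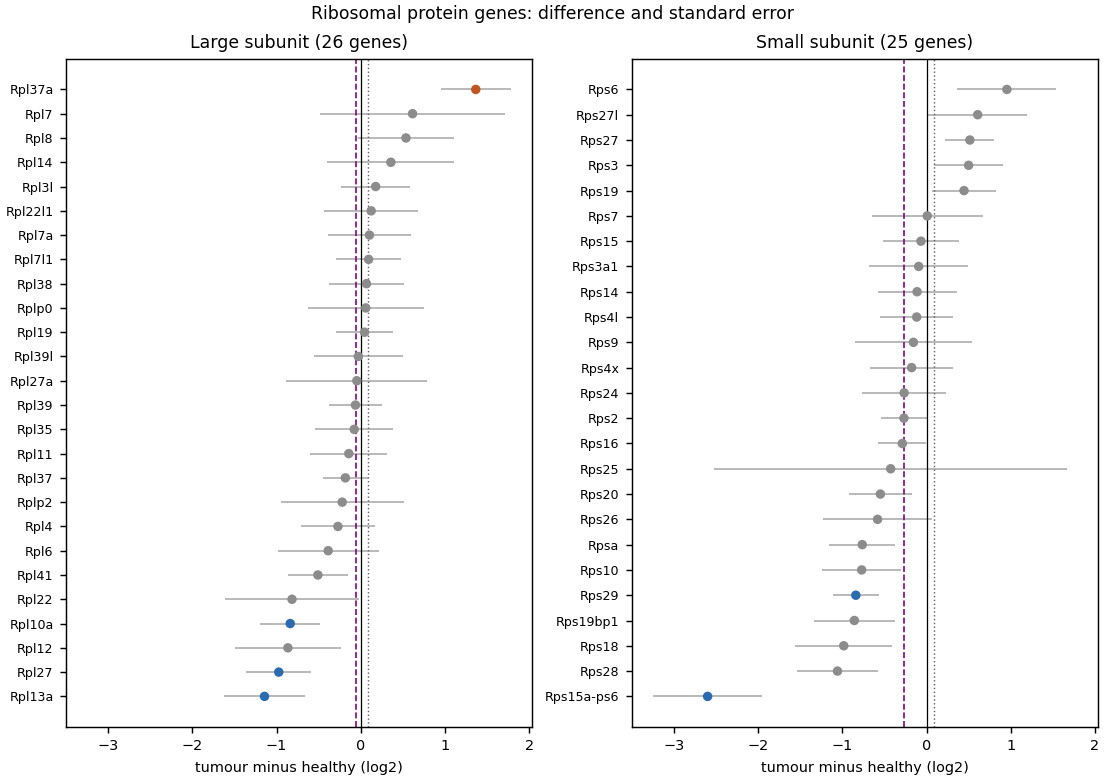
Tumour minus healthy difference (log2) of each ribosomal protein gene, with limma's standard error as a bar and 3 arrays per group. Blue and orange points are genes whose groups do not overlap, the dashed line is the subunit's median, the dotted line the median of all genes. Most genes lie within 1 unit of 0, Rpl37a is highest at 1.37 and Rps15a-ps6 lowest at -2.60.

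The members moved up and down together from array to array, and this spread was larger than the difference between the groups. Relative to each gene's healthy mean, the large-subunit genes had medians of -0.34, 0.29 and 0.13 in healthy replicates 1, 2 and 3, and of -0.17, 0.44 and -0.62 in tumour replicates 1, 2 and 3. The small-subunit genes had -0.34, 0.21 and 0.21 in healthy skin and -0.34, 0.07 and -0.57 in tumours. Both subunits were thus lowest in tumour replicate 3. That array gave the lowest of the 6 values for 23 of 51 members (45.1%, against 12.8% of all genes), and tumour replicate 2 gave the highest for 20 (39.2%, against 13.0% of all genes). Within a group the typical member spread more than the typical gene. The median over members of the mean of both groups' SDs was 0.64, against 0.47 over all genes. Among genes above background on all 6 arrays it was 0.63 for members and 0.52 for all genes. Such a spread was not particular to the members. The lists of ribosome production and use described below ranged from 0.57 (mitochondrial ribosomal proteins) to 0.85 (p53 and ribosomal stress), with initiation factors at 0.71.

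**Figure D2:**
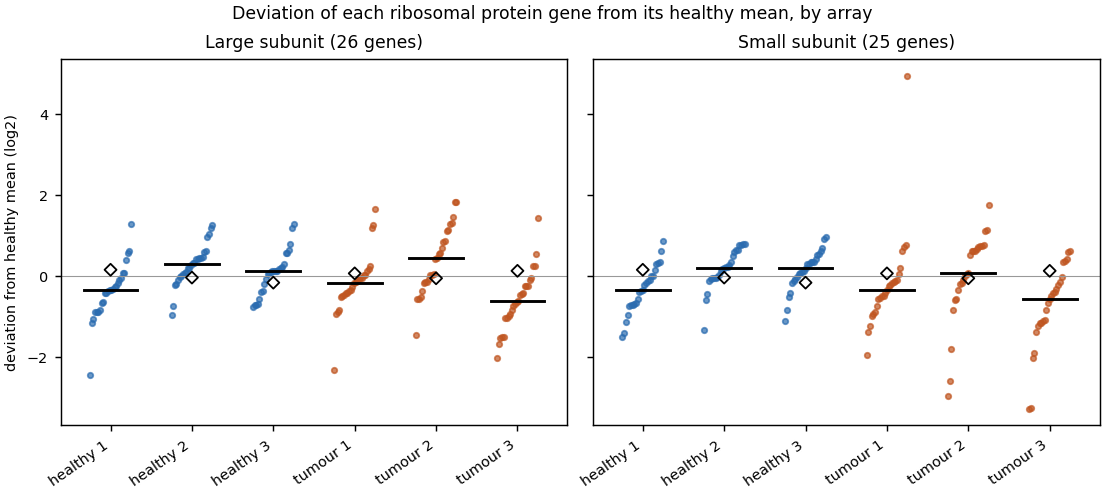
Deviation of each ribosomal protein gene from its own healthy mean (log2) on each of the 6 arrays, healthy in blue and tumour in orange. Bars are medians over the genes shown and open diamonds medians over all 18193 genes. Tumour replicate 2 is the highest array of its group and tumour replicate 3 the lowest in both subunits.

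Some array-level measures moved with this pattern. The mean of 18 hybridization controls was 13.01, 12.35 and 12.33 (log2) in healthy replicates 1, 2 and 3 and 13.20, 12.78 and 13.36 in tumour replicates 1, 2 and 3. Arrays with a higher control level had lower ribosomal protein signal in each group, apart from healthy replicates 2 and 3, whose control levels were nearly equal. With the control level as a covariate in limma, the median became 0.61 over large-subunit and 0.16 over small-subunit genes, while that of all genes became -0.12. Fibroblast markers ranked the arrays of each group in a like order, with mean levels of 7.29, 8.88 and 7.46 in healthy replicates 1, 2 and 3 and 7.98, 8.58 and 5.49 in tumours (12 of 16 markers lower in tumours). Keratinocyte markers, of which 20 of 22 were lower in tumours, had mean levels between 6.32 and 6.85 in healthy skin and between 3.94 and 5.38 in tumours. Macrophage markers, 16 of 18 of them higher, had 7.12 in tumour replicate 2 and between 4.92 and 5.48 on the other arrays. Markers of LECs themselves had mean levels between 5.44 and 6.28 in healthy skin and between 6.76 and 7.02 in tumours, with 12 of 14 higher. For Actb, the 3′ minus the 5′ control signal was 0.38, 0.23 and -0.31 in healthy replicates and 0.47, 0.60 and -0.63 in tumours. It ranked the tumour arrays, but not the healthy ones, in the order of the ribosomal protein signal. For Gapdh it was 3.72, 3.23 and 2.77 against 2.15, 4.10 and 2.29, which matched neither group's order. The part of these measures in the ribosomal protein values was not tested, and more RNA per cell cannot be told apart from more cells of a kind.

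**Figure D3:**
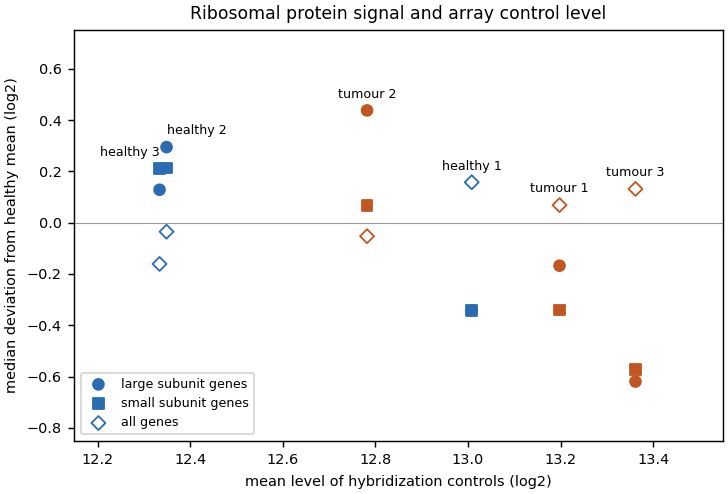
Mean level of the 18 hybridization controls (log2) against the median deviation of a set of genes from its healthy mean (log2), for the 6 arrays, healthy in blue and tumour in orange. Circles are large-subunit genes, squares small-subunit genes and open diamonds all genes. The arrays with the highest control level, tumour replicates 1 and 3 and healthy replicate 1, have negative ribosomal protein medians.

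At the annotated start some of these genes had a long pyrimidine run and others only a short one, as the windows of members described below show (RefSeq, GRCm38.p6). Each runs 5′ to 3′ from 35 bases before the annotated start to the 20th base from it, and capitals mark the longest run of C and T that touches the 5 bases on either side of the start. Rps18 (chr17:33955646-33955700, minus strand), Rpl13a (chr7:45128726-45128780, minus strand), Rps10 (chr17:27635225-27635279, minus strand) and Rpl27a (chr7:109519160-109519214, plus strand) have runs of 11, 14, 13 and 20 bases. Shorter runs were found at the annotated starts of Rps28 (chr17:33824543-33824597, minus strand, 4 bases), Rpl37a (chr1:72711225-72711279, plus strand, 3), Rpsa (chr9:120127731-120127785, plus strand, 3) and Rpl27 (chr11:101442210-101442264, plus strand, 5). The same holds for Rps3 (chr7:99483690-99483744, minus strand, 2), Rpl41 (chr10:128549149-128549203, minus strand, 3) and both starts of Rpl10a (chr17:28328436-28328490 with 7 and chr17:28328530-28328584 with 1, plus strand). The run of Rpl13a begins only at base 3 from the annotated start. An annotated start need not be the start used in these cells, so a short run does not show that a gene lacks a TOP element.
Rps18: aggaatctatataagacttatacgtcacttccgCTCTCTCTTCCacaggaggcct
Rpl13a: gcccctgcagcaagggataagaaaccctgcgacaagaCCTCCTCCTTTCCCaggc
Rps10: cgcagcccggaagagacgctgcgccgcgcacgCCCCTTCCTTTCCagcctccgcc
Rpl27a: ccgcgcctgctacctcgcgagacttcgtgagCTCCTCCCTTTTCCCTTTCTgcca
Rps28: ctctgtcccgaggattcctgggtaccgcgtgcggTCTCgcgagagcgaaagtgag
Rpl37a: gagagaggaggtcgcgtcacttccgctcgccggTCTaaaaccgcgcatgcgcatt
Rpsa: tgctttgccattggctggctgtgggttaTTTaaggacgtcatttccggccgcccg
Rpl27: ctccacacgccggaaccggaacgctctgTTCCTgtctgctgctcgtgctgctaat
Rps3: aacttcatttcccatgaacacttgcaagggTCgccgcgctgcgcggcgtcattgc
Rpl41: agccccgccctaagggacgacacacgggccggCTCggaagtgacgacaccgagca
Rpl10a, upstream start: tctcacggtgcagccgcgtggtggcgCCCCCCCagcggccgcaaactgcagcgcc
Rpl10a, downstream start: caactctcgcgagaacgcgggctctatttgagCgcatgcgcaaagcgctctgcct

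Promoter entries were found for 44 of the 51 members. Of their 52 entries, 18 (34.6%) had such a run of at least 8 bases, against 9.72% of all 32851 entries and 9.33% of those of mitochondrial ribosomal protein genes, whose messenger RNAs are not of the TOP class. The core CCGGAAG of ETS-family sites, searched on both strands over the 250 bases before and 50 after the start, was present in 40.4% of member entries, 34.7% of mitochondrial ones and 8.86% of all. The core AAGATGGC of YY1 sites, searched in the same way, was in 7.69%, 16% and 2.75% of them. Over the 21262 entries of protein-coding genes alone, the long run was found in 9.78%, the ETS core in 11.6% and the YY1 core in 3.05%. A match of letters is no evidence that a factor binds there. The 18 genes with a long run had a median difference of -0.06, and the 26 with a shorter run one of -0.18. Both kinds held members on either side of 0, with ranges from -1.14 to 0.95 and from -1.06 to 1.37.

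Among the small-subunit genes, Rps29 gave the same picture on all of its probe sets. Rps29 is a small zinc-binding protein near the messenger RNA channel of the 40S subunit. Its strongest probe set, 1438859_x_at, had 11.44, 11.35 and 11.49 in healthy skin and 10.86, 10.59 and 10.32 in tumours, means of 11.43 ± 0.07 and 10.59 ± 0.27 (SD, n = 3 arrays per group). Every tumour value lay below every healthy one, and the difference was -0.84 with a standard error of 0.27 (limma adjusted p = 0.682). Probe set 1437413_x_at had 9.92, 9.47 and 10.18 against 7.43, 9.12 and 8.30 (difference -1.57), and 1415833_x_at had 8.91, 8.78 and 9.24 against 7.37, 8.55 and 7.58 (difference -1.14). Neither pair of groups overlapped, and neither probe set passed (limma adjusted p = 0.644 and 0.702). All 3 carry the suffix _x_at, which marks probes that can also bind other transcripts, so related sequences may share this signal. The 15 other fits kept all 3 negative, between -0.61 and -1.99. Since the groups do not overlap, those that left out or weighted arrays could not have changed the sign.

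Rps28, Rps18 and Rpsa had negative differences of similar size, but their groups overlapped. Rps28, a small protein at the exit of the messenger RNA channel, had 10.39, 11.16 and 11.30 in healthy skin and 10.02, 10.61 and 9.05 in tumours (1451101_a_at, difference -1.06, standard error 0.48, limma adjusted p = 0.804). Its other probe sets differed by -0.89 and -1.03. In each of them tumour replicate 2 lay above the lowest healthy value and tumour replicate 3 was lowest. Rps18, a protein of the head of the small subunit, had 10.36, 11.23 and 10.16 against 9.60, 10.64 and 8.56 on its strongest probe set, 1435712_a_at (difference -0.98, limma adjusted p = 0.863). All 6 of its probe sets had negative differences, from -1.08 to -0.04, the 2 not above background on every array among the smaller ones. Rpsa, the protein SA of the small subunit and also known as a laminin receptor, had 10.95, 11.34 and 11.60 against 10.55, 11.14 and 9.91 (1448245_at, difference -0.76, limma adjusted p = 0.843). Its second probe set was not above background on any of the 6 arrays. Without tumour replicate 3 the differences were -0.64 for Rps28, -0.46 for Rps18 and -0.45 for Rpsa.

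The largest negative difference of a member belonged to the pseudogene Rps15a-ps6. Its probe set 1430290_at had 5.99, 4.30 and 6.60 in healthy skin and 3.68, 3.05 and 2.37 in tumours, so the groups did not overlap. The difference was -2.60 with a standard error of 0.65 (limma adjusted p = 0.557), and tumour replicates 2 and 3 were below background. Rps19bp1 had 6.50, 6.33 and 5.65 against 5.61, 4.35 and 5.94 (1455174_at, difference -0.86, limma adjusted p = 0.861). Neither of these encodes a part of the ribosome. With only the genes that RefSeq lists as protein coding, which leaves out the pseudogene and Rps4l, the small-subunit median was again -0.27.

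On the positive side of the small subunit no representative probe set separated the groups. Rps6, the protein whose phosphorylation by S6 kinase is read as mTOR activity, had 3.59, 3.48 and 1.86 in healthy skin and 3.69, 4.75 and 3.35 in tumours (1416142_at, difference 0.95, limma adjusted p = 0.868). These values lie at or near background, which only 3 of the 6 arrays exceeded. The brighter Rps6 probe sets, shared with the pseudogene Rps6-ps4, mostly had negative differences. Of the 4 with means near or above 10, 1454620_x_at differed by -0.84, 1455693_x_at by -0.78, 1416141_a_at by -0.41 and 1434377_x_at by 0.41. Rps27, a zinc-finger protein, had 4.20, 4.58 and 4.15 against 4.51, 5.05 and 4.92 (1460699_at, difference 0.51, limma adjusted p = 0.861). The brighter probe set that Rps27 shares with Rps27rt, 1415716_a_at, had means of 10.40 and 9.71 and differed by -0.69 (limma adjusted p = 0.868). Rps27l, a relative of Rps27 and a p53 target in human cells, had 5.32, 7.48 and 7.34 against 7.33, 7.50 and 7.14 (1450925_a_at, difference 0.61). Healthy replicate 1 alone stood low there. Without that array the difference was -0.09, while over the 6 arrays all 3 of its probe sets had positive differences. Rps3, which lies at the messenger RNA entry and also acts in DNA repair, had 9.44, 10.21 and 10.64 against 10.87, 10.85 and 10.07 (1435151_a_at, difference 0.50, limma adjusted p = 0.881). Rps19, the gene most often mutated in Diamond-Blackfan anaemia, had 7.08, 6.87 and 6.80 against 6.78, 8.04 and 7.27 (1449243_a_at, difference 0.44). Rps7, a further protein that binds Mdm2, differed by 0.01 on its representative probe set (limma adjusted p = 1). A probe set that Rps7 shares with Gm7285, 1455364_a_at, differed by 2.18, and its groups did not overlap (limma adjusted p = 0.596). Rps4x and Rps4l, an X-linked gene and its relative, differed by -0.18 and -0.12, Rps4l on a probe set above background on 2 arrays only. The other Rps4x probe set, 1420303_x_at, above background on all 6 arrays, differed by 0.76 (limma adjusted p = 0.853).

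Within the large subunit, Rpl13a, Rpl27 and Rpl10a were lower in every tumour sample than in any healthy one. Rpl13a, which besides its place in the ribosome silences translation of inflammatory messenger RNAs, had 12.40, 11.62 and 11.44 in healthy skin and 10.98, 11.26 and 9.78 in tumours (1455485_x_at). Its difference was -1.14 with a standard error of 0.48 (limma adjusted p = 0.781), and its 3 other probe sets differed by -0.95, -0.29 and 0.01. Rpl27 had 9.59, 9.30 and 9.63 against 8.61, 9.14 and 7.84 (1448217_a_at, limma adjusted p = 0.757). The difference was -0.975 there, -0.89 on 1453096_x_at and -0.05 on 1416099_at. Rpl10a had 9.16, 9.12 and 9.34 against 8.73, 8.69 and 7.69 on its only probe set (1431177_a_at, difference -0.84, limma adjusted p = 0.789). For all 3 genes tumour replicate 3 was the lowest array, and without it the differences shrank to -0.70 for Rpl13a, -0.63 for Rpl27 and -0.50 for Rpl10a. The sign stayed negative in each of the 15 other fits. With groups that do not overlap, leaving out or weighting arrays cannot change the sign, so those fits lend no support. The smallest difference of Rpl13a was -0.41, without healthy replicate 1 and tumour replicate 3. Rpl41, a very short basic protein, had 10.40, 11.09 and 10.44 against 10.13, 10.57 and 9.70 (1422623_x_at, difference -0.51, or -0.29 without tumour replicate 3). The remaining genes that the naming rule took on this side were Rpl12 with -0.87, on a probe set above background on 4 arrays, and Rpl22 with -0.82. The Rpl12 probe sets shared with other symbols, 1435725_x_at and 1416026_a_at, were above background on all 6 arrays and differed by -0.01 and 0.27. The probe sets of Rpl22, an RNA-binding protein that T cell development needs, disagreed, since its other 2 differed by 0.41 and 0.38.

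Rpl37a was the only large-subunit gene whose representative was higher in all tumour samples. Rpl37a is a small zinc-binding protein of the large subunit. Its probe set 1460543_x_at had 8.33, 9.36 and 9.80 in healthy skin and 10.36, 10.64 and 10.60 in tumours, means of 9.16 ± 0.75 and 10.53 ± 0.15 (SD, n = 3 arrays per group). The difference was 1.37 with a standard error of 0.42 (limma adjusted p = 0.658). Its probe set 1416217_a_at went the other way, with 6.65, 7.87 and 8.83 against 7.07, 8.97 and 5.61 (difference -0.57), and 1416218_x_at, above background on 4 arrays, differed by 0.19. Rpl8 had 5.87, 6.46 and 6.24 against 6.21, 8.03 and 5.94, where tumour replicate 2 alone stood high (1417762_a_at, difference 0.54). Rpl7 had 4.33, 8.04 and 7.97 against 8.06, 8.09 and 6.04 (1415979_x_at, difference 0.61). Healthy replicate 1 was the low array for Rpl7, as on its second probe set 1426162_a_at, which had 2.65 there and 7.50 and 7.36 in the other healthy samples. The probe set that Rpl14 has to itself, 1422128_at, differed by 0.36 and was above background on 1 array only. The 5 that Rpl14 shares with the pseudogene Rpl14-ps1 were above background on all 6 arrays, and 4 of them had negative differences, from -0.73 to -0.29, while 1426793_a_at differed by 1.28.

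On their representative probe sets, the stalk proteins and the Mdm2-binding protein Rpl11 differed little compared with their spread. Rplp0, the base of the stalk that recruits elongation factors and a common reference gene, had 7.75, 8.97 and 7.30 in healthy skin and 7.93, 9.30 and 6.97 in tumours (1419441_at, difference 0.06, limma adjusted p = 0.992). Rplp2, another stalk protein, had 7.92, 8.91 and 9.62 against 8.54, 9.93 and 7.32 (difference -0.22). Rpl11 had 8.60, 9.68 and 9.48 against 9.21, 9.71 and 8.41 (difference -0.14, limma adjusted p = 0.974). A dimmer probe set that Rpl11 shares with Gm5093, 1448773_at, differed by -0.58 without overlap (SDs 0.03 and 0.10, limma adjusted p = 0.786). Rpl38, which the translation of certain Hox messenger RNAs needs, had 9.11, 9.86 and 9.62 against 9.49, 10.41 and 8.90 (difference 0.07). On the representative probe set of each of these 4 genes, tumour replicate 2 was the highest of the 6 arrays and tumour replicate 3 the lowest. The relatives Rpl3l, Rpl7l1, Rpl22l1 and Rpl39l differed by between -0.03 and 0.18, and Rpl39 by -0.06.

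Several genes had probe sets that disagreed, and the strongest positive values of the family come from such cases. Of the 24 genes with more than 1 probe set, 12 had differences of both signs, 7 were negative and 5 positive throughout, and in 11 the probe sets lay more than 1 apart. The probe set 1419799_at of Rpl27a had 4.10, 3.70 and 3.48 in healthy skin and 9.95, 8.02 and 11.62 in tumours. Its groups were far apart, and the difference was 6.11 with a standard error of 0.84 (limma adjusted p = 0.187). The other Rpl27a probe set, 1437729_at, had 7.28, 8.49 and 8.75 against 7.24, 10.01 and 7.13, a difference of -0.05. Its highest tumour value fell in replicate 2, where 1419799_at had its lowest. The 1419799_at probe set was 1 of 7 on the array with a difference above 5 and an unadjusted limma p under 0.001. Another was 1459002_at, annotated to Rpl21 and Gm5528 and described below, and the rest have no symbol. Among the tumour arrays all 7 were highest in replicate 3 and lowest in replicate 2. Without tumour replicate 2, 1419799_at passed limma's test (difference 7.03, adjusted p = 0.0422).

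Rps10, a protein of the head of the small subunit, and Rps24 showed the same disagreement. The Rps10 probe set 1416719_a_at had 5.80, 6.06 and 4.75 in healthy skin and 7.42, 7.92 and 9.18 in tumours (difference 2.64, standard error 0.56, limma adjusted p = 0.467). Its groups did not overlap, whereas the 5 other Rps10 probe sets differed by between -0.77 and 0.51. The Rps24 probe set 1455195_at had 4.40, 2.60 and 5.71 against 2.59, 2.01 and 2.21 (difference -1.97, limma adjusted p = 0.735), with only 2 values above background. Its 5 other probe sets differed by between -0.54 and 0.45. Rps25, named after its values were seen, had 4.87, 5.91 and 5.91 in healthy skin and 10.52, 2.61 and 2.28 in tumours (1430978_at), where tumour replicate 1 stood far above the other 2. Over all members, the 40 probe sets ending in _x_at had a median difference of -0.26, the 28 ending in _a_at one of -0.12 and the 36 ending in _at alone one of -0.03.

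**Figure D4:**
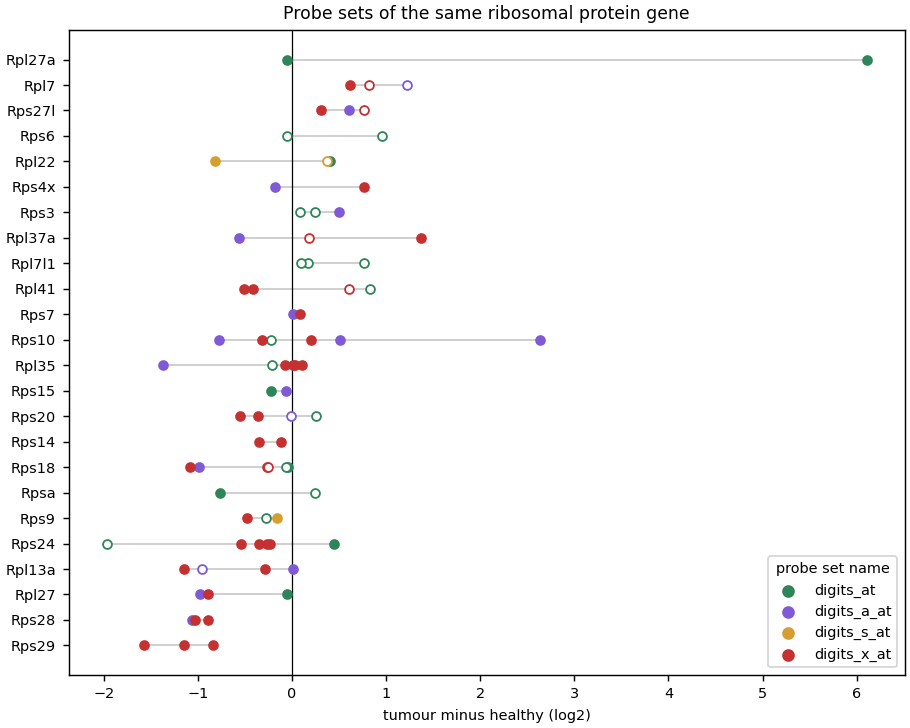
Tumour minus healthy difference (log2) of every probe set of the 24 ribosomal protein genes that have more than 1, joined by a line per gene. Colour gives the suffix of the probe set's name, filled points were above background on all 6 arrays and open points on fewer. The 3 probe sets of Rps29 and of Rps28 lie together below 0, while those of Rpl27a lie 6.15 apart.

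**Figure D5:**
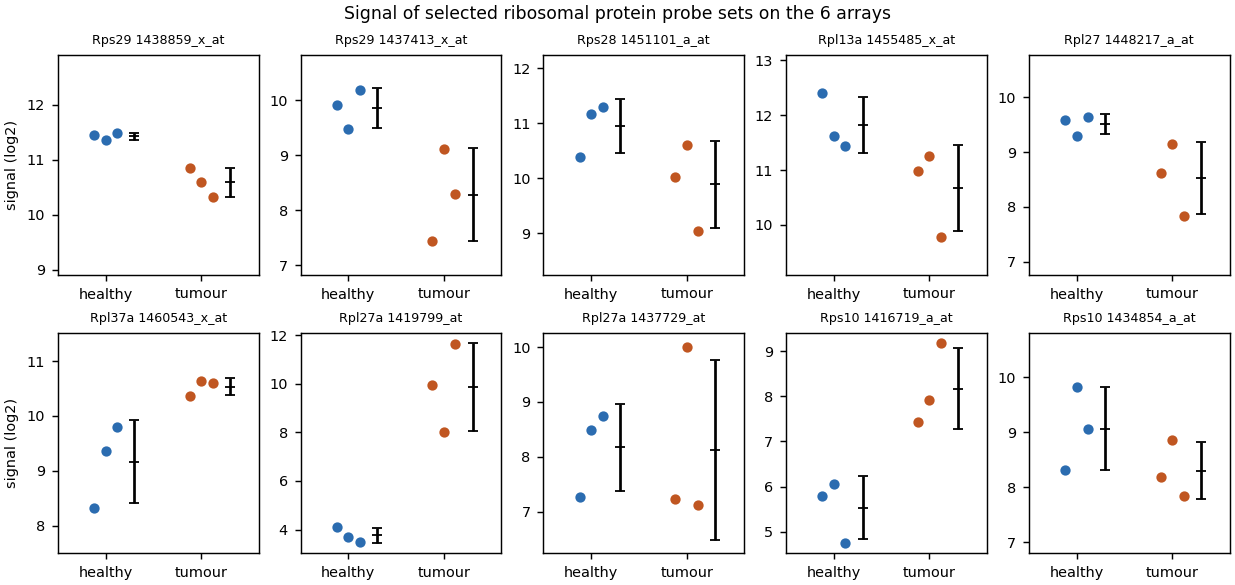
Signal (log2) of 10 ribosomal protein probe sets on the 3 healthy (blue) and 3 tumour (orange) arrays, in order of replicate, with mean and SD beside the points. Axes differ between panels and do not start at 0. The tumour values of Rps29 lie below the healthy ones and those of Rpl27a 1419799_at far above.

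The 110 probe sets with several symbols had a median difference of -0.32, and 71 were negative (64.5%, against 44.5% of all probe sets). None passed limma's adjusted threshold. At an unadjusted limma p under 0.05, 7 were lower (6.36%, background 3.53%) and 5 higher (4.55%, background 2.83%). Counting them with the others gave medians of -0.13 over 48 large-subunit genes and -0.47 over 30 small-subunit genes. On the negative side, 3 of the 4 probe sets with Rpl13 differed by between -1.82 and -1.16, and that of 1460581_a_at was the lowest of these (9.32, 10.09 and 10.65 in healthy skin, 8.16, 9.21 and 7.25 in tumours). On the positive side, a probe set with Rpl23 (1460680_a_at) had 8.24, 9.22 and 10.04 against 10.31, 10.91 and 11.00, and differed by 1.58 (limma adjusted p = 0.667). The probe sets with Rpl23 disagreed, since the brightest, 1454859_a_at, differed by -0.74 and 1415701_x_at by 0.23. The last, 1422859_a_at, differed by 0.68 but was above background on no array. A probe set with Rpl24 (1460201_a_at) had 6.79, 8.22 and 8.22 against 8.78, 8.95 and 9.76. All these genes were named after their values were seen.

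Other genes of ribosome production and use were read from lists, and no member of any passed limma's adjusted threshold. The 76 mitochondrial ribosomal protein genes, which serve the separate ribosome of mitochondria, had a median difference of -0.21, with 47 negative, 7 lower and 1 higher at an unadjusted limma p under 0.05 (background over genes 4.28% and 3.22%). Mrpl41 had 5.48, 5.86 and 6.44 in healthy skin and 3.35, 4.57 and 3.97 in tumours (difference -1.96, limma adjusted p = 0.477), and Mrps28, Mrpl33 and Mrps24 differed by between -1.19 and -1.03. Relative to each gene's healthy mean, their medians were -0.30, -0.20 and -0.21 in tumour replicates 1, 2 and 3. Of 50 ribosome assembly factors, 28 were negative and 6 lower at that threshold, with none higher (median -0.17). Rrs1, needed to assemble the large subunit, had 7.12, 8.78 and 8.56 against 6.37, 5.06 and 2.92 (difference -3.37, limma adjusted p = 0.583), Emg1, which modifies ribosomal RNA, differed by -1.38 and the nucleolar proteins Gnl3 and Ddx21 by -1.34 and -1.98.

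Initiation factors had a median of 0.16 over 34 genes, with 2 higher and 1 lower at an unadjusted limma p under 0.05 (background over genes 3.22% and 4.28%). Eif6, which keeps the free large subunit from joining the small one, had 5.32, 4.73 and 4.97 in healthy skin and 7.66, 6.26 and 7.12 in tumours (difference 2.01, standard error 0.42, limma adjusted p = 0.441). Its groups lay well apart, while Eif3i, a subunit of the scaffold factor eIF3, had a difference of -1.97. The 12 elongation and termination factors had a median of -0.02, with Eef1a1, which delivers the tRNAs, at 0.54 and Eef2, which moves the ribosome along, at 0.45. The 12 further genes of the TOP class had a median of 0.23. Among them Naca, a chaperone subunit at the ribosome's exit, had 9.43, 9.29 and 8.17 against 10.84, 9.60 and 11.53 (difference 1.70, limma adjusted p = 0.71), while Fau, the precursor of the small-subunit protein eS30, differed by -0.17. Genes of mTOR signalling had a median of 0.07 over 20 genes, with Tsc2, an inhibitor of mTOR, at 0.95, Eif4ebp1, a translation repressor that mTOR inactivates, at 0.89 and the transcription factor gene Myc at 0.02. The 11 genes of p53 and ribosomal stress had a median of 0.28, none of them past an unadjusted limma p of 0.05, with Sesn1 at -3.32 and Mdm4 at -1.40.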

How the data were processed

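Each of 6 mouse Affymetrix arrays gave 45101 probe set signals. The deposited values are RMA intensity per the submitters' processing notes, which name no software or version. Their size shows a linear scale. They were taken to log2 with no further normalization, and the 64 control probe sets were not tested. Symbols came from the platform annotation (34945 probe sets with 1 symbol, 932 with several, 9160 with none), and all 51 members matched RefSeq by Entrez identifier. Every column belonged to a sample.

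Tumour was compared with healthy by a two-sided moderated test (lmFit and eBayes of limma 3.58.1, R 4.3.3), with Benjamini-Hochberg adjustment over all 45037 probe sets and a threshold of 0.05. The script was tested on simulated data. The number of arrays, 3 per group, limits precision. Members and lists were chosen with earlier results of these data known, so lists have counts and medians but no test. The genes named were, per subunit and direction, the 6 with the smallest p, then a set of stalk, regulatory and paralogous genes, probe sets that disagree within a gene, and up to 4 genes per other list. Same-numbered arrays did not deviate together (correlations 0.04, 0.10 and -0.01 over probe sets for numbers 1, 2 and 3). Alternatives were quantile normalization, centring on array medians, a filter on dim probe sets, an offset of 16, a replicate block, a hybridization-control covariate, trend and robust moderation, array weights, each array left out and other choices of probe set or gene. Leaving out healthy replicate 1 and tumour replicate 3 together, and keeping only genes above background on all 6 arrays, were added after seeing the data.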

Additional observations from a re-analysis of the deposited data

Results flagged for a closer look

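Among signals outside the comparison, a control probe set for ribosomal RNA and a probe set with several symbols were flagged. Both were picked by a rule that asks for every tumour value to lie above every healthy one. That separation, and the permutation p it gives, are fixed by the rule and lend no support. For the probe set with several symbols, the rule also asked for an unadjusted limma p under 0.001. The control probe set for the 5′ end of 18S ribosomal RNA, the RNA of the small subunit, had 12.19, 12.37 and 12.30 (log2) in healthy skin and 12.92, 12.72 and 12.92 in tumours. The difference was 0.57 (exact two-sided permutation p = 0.1, the smallest that 3 against 3 arrays allow), while the middle and 3′ probe sets differed by -0.03 and 0.05. The probe set 1459002_at, annotated to both Rpl21 and Gm5528, had 2.57, 2.01 and 2.33 in healthy skin and 10.47, 8.03 and 11.84 in tumours, a difference of 7.81 (limma adjusted p = 0.11). The other Rpl21 probe sets 1429077_x_at and 1455767_x_at differed by -0.01 and -0.11, and 1423070_at, above background on no array, by 0.75. Of the 110 probe sets with several symbols, 9 (8.18%) had all tumour values above the healthy ones, against 6.22% of all probe sets. A further 8 (7.27%) had them all below, against 4.91% of all probe sets. Apart from 1459002_at, the 9 higher ones differed by between 0.58 and 2.18.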

How the results depend on the processing

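No ribosomal protein probe set passed limma's threshold in any fit except that leaving out single arrays gave between 0 and 1. The median difference ranged from -0.42 to 0.11 over large-subunit genes and from -0.64 to -0.0451 over small-subunit genes when single arrays were left out. It was 0.61 and 0.16 with the hybridization-control covariate. No other setting moved either median by more than the spread between arrays. Over all probe sets limma called 2. It called 22 with array weights, 21 after the filter on dim probe sets, 1 with trend and robust moderation, between 0 and 23 without single arrays, and 0 after centring, with an offset of 16, with the covariate, with the replicate block, and without healthy replicate 1 and tumour replicate 3 together. The cause was not tested. Of 38 named probe sets, 21 kept their sign in every fit and 17 did not. Rps29, Rpl13a, Rpl27, Rpl10a, Rpl37a and the divergent probe sets of Rpl27a and Rps10 are among those that did. Their groups do not overlap, so leaving out or weighting arrays could not change their sign, and those fits lend no support.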
